A study of Mus musculus with 4 samples.

Results

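The uroplakins Upk1a, Upk1b, Upk2, Upk3a and Upk3b, 5 of the 31053 genes in the UMI tables, were followed through single-cell libraries of the mouse prostate. They were chosen by name as a gene family, and every member had at least 1 UMI in the study, although Upk3a had none in the assigned cells of run 3. The study compared epithelial cells with and without activity of Runx1 in the adult prostate, in its response to castration and in the budding prostate of the embryo. Adult cells came from 3 lobes, the anterior one (AP), the dorsolateral one (DLP) and the ventral one (VP), of ICR (CD-1) mice older than 8 weeks that carried P2-Runx1:RFP, a reporter in which the proximal P2 promoter of Runx1 drives RFP; intact and castrated mice carried it alike. Live EPCAM+ cells were sorted as RFP+ or RFP-, so that each fraction mixed basal and luminal cells, and each sorted population was marked with a lipid-bound barcode (MULTI-seq) before pooling in 3 runs.

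Castrated mice were taken more than 4 weeks after surgery. Their lobes were kept apart in run 2 only, and run 1 held 17 RFP+ cells from pooled castrated lobes. RFP+ cells of the intact DLP could be assigned in run 3 only. The explant library held EPCAM+ cells of the urogenital sinus (UGS), taken from ICR embryos at E15.5 and cultured with 10 µM dihydrotestosterone for 0, 1, 3 or 6 days, with the explants of each day pooled. After filtering, 4691 adult cells (824, 2194 and 1673 in runs 1 to 3) and 5198 explant cells had 1 barcode, with a median of 9750 to 14784.5 UMIs per cell. Cells with 3 or more UMIs of Ptprc, Pecam1, Col1a1 and Col3a1 together, markers of blood, vessel and stromal cells, are called non-epithelial here and made up 14.3%, 11.9% and 1.43% of runs 1 to 3 and 3.58% of the explant cells. Any pair of libraries shared at most 5 cell barcodes.

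Uroplakins are membrane proteins that assemble into the rigid plaques covering the luminal surface of the bladder, where they form part of its barrier to urine. Upk1a and Upk1b encode the tetraspanins uroplakin Ia and Ib, each of which pairs with another uroplakin. Ia pairs with uroplakin II, encoded by Upk2, and Ib with uroplakin IIIa or IIIb, encoded by Upk3a and Upk3b. Superficial (umbrella) cells of the urothelium make all of them and carry the plaques to the surface in vesicles. The urethra and the prostatic buds both form from the UGS, and the adult prostatic ducts open into a urethra lined by urothelium.

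The 5 genes lie on 5 chromosomes. In GRCm38.p6 Upk1a spans chr7:30603092-30612847 and Upk1b chr16:38773184-38800328, both on the minus strand. Upk2 spans chr9:44452715-44454976 on the minus strand, Upk3a chr15:85017141-85022547 and Upk3b chr5:136038496-136046487, both on the plus strand. Upk3bl, a relative of Upk3b, starts 8005 bases beyond the end of Upk3b. Promoters of 3 members, Upk1a, Upk3a and Upk3b, were in the RefSeq table for this build (250 bases before the start and 50 after it, read in the direction of the gene). They are shown because sorting followed a Runx1 reporter and because Upk1a and Upk3a parted in the explants. Capitals mark the core sequence bound by RUNX factors (TGTGGT or its complement ACCACA) and a GATA core (GATAA or TTATC), which do not overlap each other in these windows.
Upk1a, chr7:30612685-30612984, minus strand: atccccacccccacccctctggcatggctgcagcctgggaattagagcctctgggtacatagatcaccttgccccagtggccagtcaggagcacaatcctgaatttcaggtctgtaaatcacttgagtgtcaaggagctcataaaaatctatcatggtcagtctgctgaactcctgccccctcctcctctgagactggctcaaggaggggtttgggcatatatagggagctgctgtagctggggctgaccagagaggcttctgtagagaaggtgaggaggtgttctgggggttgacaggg
Upk3a, chr15:85016891-85017190, plus strand: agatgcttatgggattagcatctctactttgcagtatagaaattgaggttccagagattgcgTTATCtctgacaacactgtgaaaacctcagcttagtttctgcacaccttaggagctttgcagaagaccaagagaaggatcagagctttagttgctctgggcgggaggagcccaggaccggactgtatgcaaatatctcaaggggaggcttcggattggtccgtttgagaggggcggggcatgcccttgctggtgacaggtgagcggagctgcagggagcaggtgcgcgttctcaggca
Upk3b, chr5:136038246-136038545, plus strand: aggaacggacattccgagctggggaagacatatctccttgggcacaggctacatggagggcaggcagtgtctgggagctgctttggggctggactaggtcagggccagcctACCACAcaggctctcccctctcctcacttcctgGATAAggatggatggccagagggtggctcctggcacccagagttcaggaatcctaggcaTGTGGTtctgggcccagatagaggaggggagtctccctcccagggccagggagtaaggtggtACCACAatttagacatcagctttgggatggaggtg
The Upk1a window held neither core. The Upk3a window held no RUNX core and 1 GATA core, 188 bases before the start. The Upk3b window held 3 RUNX cores, at positions -139, -47 and 15 from the start, and 1 GATA core at -106. Among 32851 promoter windows of the same length, 16.8% held the RUNX core and 25.4% the GATA core on either strand, so that these matches describe the letters only.

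In the intact adult lobes Upk1a, Upk1b and Upk2 were measurable, and they were not highest in the same place. Levels are CPM, the gene's UMIs scaled to a common total, over the summed cells of each population and run, and because the libraries read 3' ends they are set side by side within a gene, not between genes. Upk1a, the partner of uroplakin II, lay at 31.5, 133 and 96.3 CPM in runs 1 to 3 of VP RFP- cells (86.8 ± 51.2, SD, n = 3) and at 80.2, 76.3 and 87.3 CPM in VP RFP+ cells (81.3 ± 5.55). It lay at 47.1, 67.5 and 87.8 CPM in DLP RFP- cells, at 62.7, 48.0 and 47.6 CPM in AP RFP+ cells (52.8 ± 8.56) and at 19.3, 57.1 and 6.16 CPM in AP RFP- cells (27.5 ± 26.4). In RFP+ cells, between which 22.2% of all genes were called in the test that follows, every VP run was above every AP run. In RFP- cells the lobes overlapped, through the 57.1 CPM of AP run 2. There 4 of 220 cells held 43, 36, 31 and 24 of the 247 Upk1a UMIs. RFP+ cells of the DLP, from run 3 alone, held 54.5 CPM of Upk1a. Upk1b, the partner of uroplakin IIIa and IIIb, ran the other way. It reached 139.7, 50.2 and 67.6 CPM in AP RFP+ cells (85.9 ± 47.5) and 63.1, 61.7 and 17.7 CPM in AP RFP- cells (47.5 ± 25.8), against 62.8, 33.3 and 19.3 CPM in DLP RFP- cells. VP cells held 31.6, 8.48 and 6.35 CPM of Upk1b in the RFP+ fraction and 9.46, 5.30 and 2.35 CPM in the RFP- fraction, below every AP run of the same fraction (22.2% and 3.15% of genes called). Upk2 was low throughout, at 9.57, 6.00 and 9.86 CPM in AP RFP+ cells (8.48 ± 2.15) and at a mean of 1.29 to 3.23 CPM in the other 4 populations. Neighbouring populations in these orders mostly overlapped between runs.

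**Figure D1:**
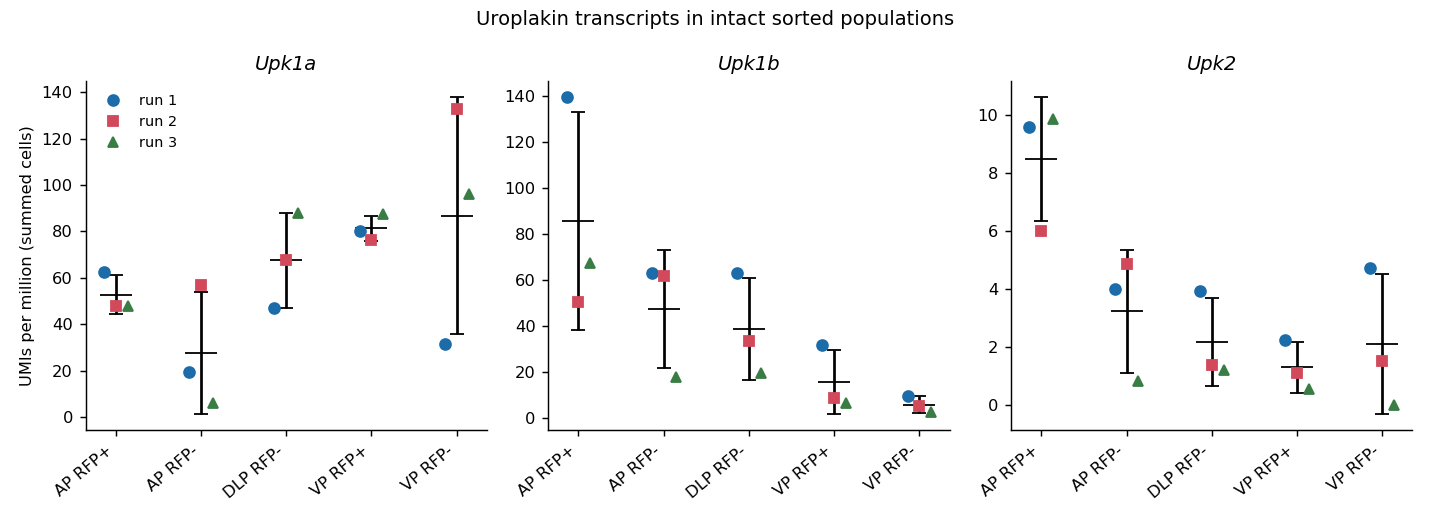
Level of each measurable uroplakin (y axis, CPM) in the intact sorted populations of the adult prostate (x axis), with 1 point per run and the mean and SD of 3 runs where there were 3. Upk1a was highest in the VP populations, at means of 86.8 and 81.3 CPM, whereas Upk1b was highest in AP RFP+ cells, at a mean of 85.9 CPM.

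Whether the Runx1 reporter or the lobe separated these levels was asked with edgeR's quasi-likelihood test on the summed counts, fitted over 11715 genes with Benjamini-Hochberg adjustment at 0.05. Only Upk1a, Upk1b and Upk2 passed the filter on low counts, and none of the 3 was called in any of the 5 comparisons. Between RFP+ and RFP- cells of the AP, where 4.00% of genes were called, log2 fold changes were 0.77 ± 0.60 (SE) for Upk1a, 0.73 ± 0.55 for Upk1b and 1.25 ± 0.66 for Upk2, with adjusted p = 0.587, 0.571 and 0.346 in edgeR. Upk2 was higher in RFP+ cells in 3 of 3 runs. Upk1a and Upk1b were lower in RFP+ cells in run 2, where 34.3% of AP RFP+ cells were non-epithelial. With non-epithelial cells left out, 297 of 452 RFP+ and 207 of 220 RFP- cells remained in that run. No member was called by RFP in the AP then either. Between RFP+ and RFP- cells of the VP, where 0.171% of genes were called, Upk1b gave 1.80 ± 0.73 (edgeR adjusted p = 0.403). The fold changes by reporter were not shown to differ between AP and VP, with edgeR interaction terms of adjusted p = 0.612 to 0.786.

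Between AP and VP the members leaned in opposite directions. In RFP+ cells, where 22.2% of genes were called, the log2 fold change of AP over VP was -1.65 ± 0.60 for Upk1a, 1.55 ± 0.57 for Upk1b and 1.85 ± 0.70 for Upk2, with edgeR adjusted p = 0.0608, 0.0668 and 0.0703. In RFP- cells, where 3.15% were called, it was -2.27 ± 0.62 for Upk1a and 2.62 ± 0.72 for Upk1b (edgeR adjusted p = 0.0666 and 0.0671), and 0.56 ± 0.85 for Upk2. These values lie close to the threshold, and without run 1 Upk1b passed it in RFP+ cells (edgeR adjusted p = 0.0486). With the run as a block, since the populations of a run were pooled into 1 library, edgeR called all 3 members in RFP+ cells (adjusted p = 0.0171, 0.00289 and 0.0203, with 38.9% of genes called) and Upk1a and Upk1b in RFP- cells (0.0177 and 0.00856, with 6.56%). The scaling also bears on Upk1a: TMM factors were 0.573 to 0.819 in VP and 1.03 to 1.55 in AP and DLP sums, and with library totals in place of TMM factors the median of all genes moved from 0.09 to 1.11 in RFP+ cells, 7623 genes were called higher in AP and 262 lower (1309 and 1290 with TMM), and Upk1a gave -0.62 (edgeR adjusted p = 0.317). Among cells with fewer than 7500 UMIs Upk1a gave 0.079. Between AP and DLP RFP- cells, where 0.222% of genes were called, Upk1a gave -1.35, Upk1b 0.30 and Upk2 0.76 (edgeR adjusted p = 0.975, 1.00 and 1.00).

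Within the AP RFP+ fraction the same 3 genes were concentrated in cells that held Krt4, a keratin, and Psca, prostate stem cell antigen, both markers of luminal cells near the urethra. Cells were called Krt4/Psca+ at 5 or more UMIs of the pair, Krt5/Krt14+ (basal keratins) at 5 or more UMIs of that pair, and other where neither held. Upk1a stood at 162, 151 and 135 CPM in the Krt4/Psca+ cells of runs 1 to 3 (184, 84 and 113 cells), where 56.0%, 56.0% and 54.9% of cells had a UMI, and at 0.737, 11.9 and 0.906 CPM in Krt5/Krt14+ cells (188, 113 and 210 cells). Upk1b stood at 342, 181 and 182 CPM against 9.58, 3.75 and 7.24 CPM, and 91.8%, 78.6% and 70.8% of Krt4/Psca+ cells had a UMI of it. Upk2 stood at 24.0, 22.8 and 29.8 CPM, and Krt5/Krt14+ cells held 2 UMIs of it in run 1 and none in runs 2 and 3. Thinned to 4000 UMIs per cell, 36.3%, 34.1% and 30.2% of Krt4/Psca+ cells still had Upk1a, against 0.549%, 0.917% and 0 of Krt5/Krt14+ cells. For comparison, 3.18% (9 of 283) of the cells of run 2 with 2 or more UMIs of the blood cell genes Ptprc, Cd3d and Itgam had a UMI of Upk1a at a median of 7495 UMIs, and shares at or below this one were read as background.

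For all 3 genes the Krt4/Psca+ sums lay above every sum of both other classes, which overlapped each other for Upk1a and Upk1b. All 3 rose in Krt4/Psca+ over Krt5/Krt14+ cells, where 13.0% of 9874 genes were called (6.83% higher): Upk1a by 5.22 ± 0.91 on the log2 scale, Upk1b by 4.996 ± 0.59 and Upk2 by 6.40 ± 0.64 (edgeR adjusted p = 0.00634, 0.00134 and 0.000735). The value of Upk2 depends on the prior count, because 2 Krt5/Krt14+ sums were at 0. Against the other AP RFP+ cells, where 10.0% of genes were called (5.08% higher), the 3 members rose by 3.08 ± 0.81, 2.90 ± 0.53 and 3.97 ± 0.58 (edgeR adjusted p = 0.0450, 0.0165 and 0.00802). In those other cells Upk1a lay at 7.55, 13.7 and 28.2 CPM and Upk1b at 48.5, 7.06 and 39.5 CPM. The 4 hematopoietic markers summed to 7673, 16447 and 0 CPM there, against 73.3, 36.1 and 0 CPM in Krt4/Psca+ cells; with all non-epithelial cells left out the fold changes were 2.39, 2.33 and 3.24, and Upk1a no longer passed (edgeR adjusted p = 0.0635). Upk1a against the other cells also missed the threshold with the Krt4/Psca gate at 2 or 10 UMIs and without Upk3a-rich cells (edgeR adjusted p = 0.0610, 0.0552 and 0.0506), so that it was called in 6 of 13 alternatives. Without run 1, no member passed in either class comparison (adjusted p = 0.0655 to 0.0910 and 0.177 to 0.263). Against the other cells Upk1b was the only member called without run 2 and Upk2 the only one without run 3, and against Krt5/Krt14+ cells Upk1a was lost without run 3 (adjusted p = 0.0837).

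**Figure D2:**
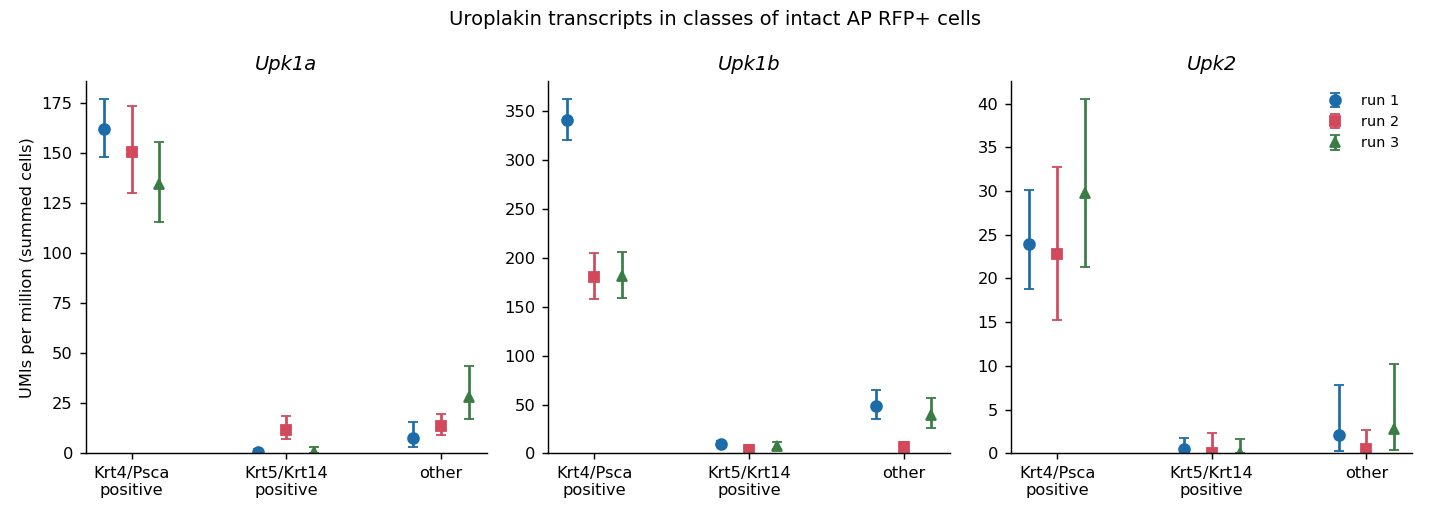
Level of Upk1a, Upk1b and Upk2 (y axis, CPM) in Krt4/Psca+, Krt5/Krt14+ and other cells of the intact AP RFP+ fraction, with 1 point per run. In each gene the 3 runs of Krt4/Psca+ cells lay above all runs of both other classes, with Upk1a at 135 to 162 CPM.

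Upk1a was also present outside that class in the VP. VP cells with neither marker pair had a UMI of Upk1a in 73.9%, 67.0% and 63.3% of RFP+ cells of runs 1 to 3 (46, 194 and 150 cells), at 60.6, 74.9 and 81.5 CPM, and in 54.5%, 69.0% and 74.5% of RFP- cells, at 33.8, 167 and 156 CPM. These cells were deep, with medians of 57950, 45816.5 and 45293 UMIs in the RFP+ fraction, and after thinning to 4000 UMIs 26.2%, 25.9% and 24.3% of them had the gene. Upk1b lay at 5.47, 4.05 and 4.18 CPM in the same RFP+ cells, against 342, 181 and 182 CPM in the Krt4/Psca+ cells of the AP. The VP also held few Krt4/Psca+ RFP+ cells (10, 15 and 7), in which Upk1a reached 328, 266 and 606 CPM. VP RFP+ Krt5/Krt14+ cells had 0, 4.69 and 0 CPM of Upk1a.

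Other genes were read from lists of uroplakin vesicle traffic (7 genes), urothelial differentiation (13), other tetraspanins (9) and mesothelium (6). The last was included because mesothelial cells also make Upk3b. In Krt4/Psca+ over Krt5/Krt14+ cells, where 6.83% of all genes rose, 2 of 6 tested traffic genes did, Mal, a membrane protein of apical transport, by 4.95 and Rab11a, a GTPase of recycling vesicles, by 1.59 on the log2 scale; the list median was 0.87 and that of all genes -0.01. Of 9 tested differentiation genes 2 rose, the epithelial transcription factor Elf3 by 3.17 and the keratin Krt7 by 3.11 (median 1.41). Of 9 tetraspanins 3 rose: Tspan8 by 6.60, Tspan1 by 3.93 and Cd9 by 1.00 (median 1.00). Mal lay at 202, 206 and 191 CPM in the Krt4/Psca+ cells of runs 1 to 3. Against the other cells, where 5.08% of all genes rose, 3 of 6 traffic genes did, Mal by 2.18, Rab27b, a GTPase of secretory vesicles, by 1.71 and Rab11a by 1.03, together with 4 of 9 differentiation genes, led by Krt7 at 4.41, and 2 of 9 tetraspanins. Msln, a mesothelial surface protein that luminal cells can also make, rose by 8.64 and 6.18. Between AP and VP RFP+ cells, where 11.2% of all genes rose and 22.2% were called, Mal (3.11) and Snx31 (2.92), a sorting nexin of uroplakin turnover, rose while Myo5b, a vesicle motor, fell by 0.78, and 5 of 10 differentiation genes rose, among them Plaur, Krt13, Foxq1 and Gata3 by 1.498 to 3.31. Of 9 tetraspanins 1 rose there, Cd9 by 1.37, and 2 fell, Tspan13 by 2.07 and Tspan3 by 1.04, and both tested mesothelial genes, Wt1 and Msln, rose. In RFP- cells Gata3 rose by 2.15 and Tspan3 fell by 0.86. In AP RFP+ over RFP- cells Klf5, Cd9 and Msln rose by 1.37, 0.90 and 5.78 and Tspan13 fell by 1.29. No gene of the 4 lists was called between the VP fractions or between AP and DLP. Krt20, the keratin of umbrella cells, was at 0 in all 3 runs of AP RFP+ cells.

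Castration was read in run 2 alone, so that each ratio below has no replicate and its 95% exact Poisson interval covers counting error only. In AP RFP+ cells Upk1a lay at 67.8 CPM in castrated (410 cells) and 48.0 CPM in intact mice (452 cells), a ratio of 1.41 (1.20 to 1.67). Upk1b lay at 133 and 50.2 CPM, a ratio of 2.65 (2.30 to 3.08), and Upk2 gave 0.939 (0.547 to 1.61). The median of all genes was -0.04 on the log2 scale, and 4.05% of 11618 genes were higher by more than 1. The classes differed in their ratios. Krt4/Psca+ cells made up 14 of 410 castrated and 84 of 452 intact cells, with Upk1b at 345 and 181 CPM. The study reports Psca as androgen-regulated and lower after castration in its proximal luminal cluster. The gate may therefore divide castrated and intact cells differently, and the classes below need not hold like cells in both. In the other cells Upk1b lay at 158 CPM after castration (259 cells) and at 7.06 CPM before it (255 cells), a ratio of 22.4 (13.5 to 40.4), and Upk1a gave 70.6 and 13.7 CPM. In intact mice that class held 56.1% non-epithelial cells, and over the whole fraction hematopoietic markers summed to 7603 CPM in intact and 2129 CPM in castrated cells; with non-epithelial cells left out the ratios of the fraction were 1.11 for Upk1a and 2.10 for Upk1b. In VP RFP+ cells Upk1b lay at 61.7 CPM after castration and 4.05 CPM before it among the other cells, a ratio of 15.2 (10.5 to 22.6), while 25.5% of all genes were higher by more than 1 there and the median of all genes was 0.65. In the whole VP RFP+ fraction Upk1a gave 1.54 (1.35 to 1.75) and Upk1b 7.27 (5.59 to 9.52). Among cells with fewer than 7500 UMIs, the upper limit as the study's methods word it, Upk1a gave 4.50 in AP RFP+ cells and Upk1b 2.80 in VP RFP+ cells. In AP RFP- cells the ratios were 1.28 (0.988 to 1.65) for Upk1a and 0.972 for Upk1b, while the median of all genes was -0.23. The Upk1a ratio leaned on few cells. Of 220 intact cells 4 held 24 to 43 of the 247 UMIs each, and 1 of 67 castrated cells held 35 of 83. In DLP RFP- cells Upk1a gave 0.558 (0.339 to 0.877), where 14.4% of genes were lower by more than 1 and the median of all genes was -0.29. In VP RFP- cells it lay at 23.7 CPM after castration (9 UMIs in 16 cells) and 133 CPM before it (525 UMIs in 153 cells), a ratio of 0.179 (0.0813 to 0.342), where 15.6% of genes were lower by more than 1 and the median of all genes was -0.21. Castrated DLP RFP+ cells, without an intact partner in the run, held 78.7 CPM of Upk1a and 117 CPM of Upk1b. The 17 pooled castrated RFP+ cells of run 1 held 203 CPM of Upk1a and 181 CPM of Upk1b.

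Upk3a, the partner of uroplakin Ib in the urothelium, was rare in the adult prostate. It had 2 UMIs in run 1 and 0 in run 3, but 646 UMIs in run 2, held by 36 of 2194 cells, of which the 10 richest held 68.4%. Run 2 levels were 12.8 CPM in intact AP RFP+ and 22.6 CPM in intact AP RFP- cells, 2.07 CPM in VP RFP+ cells and 0 in DLP RFP- cells. After castration they were 40.6 CPM in AP RFP+ cells and 203 CPM in AP RFP- cells. These levels rested on few cells with many UMIs. Of 67 castrated AP RFP- cells 58 had no UMI, 2 had 1 or 2 and 7 had 10 or more; of 410 castrated AP RFP+ cells 397 had none, 7 had 1 or 2 and 6 had 10 or more. Upk3a was therefore not tested between groups, and the ratios of castrated over intact (3.17 in AP RFP+ and 8.96 in AP RFP- cells) count the same few cells. Upk3b had 35 UMIs in all 4691 adult cells, 27 of them in run 2 and 12 of those in intact AP RFP- cells.

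The 23 adult cells with 3 or more Upk3a UMIs fell apart by their other genes, which were chosen after the values were seen and carry no test. Krt7 was detected in 13 of them, 8 intact and 5 castrated. These 13 held medians of 21 UMIs of Upk3a, 21 of Upk1a and 14 of Upk1b, with medians of 37 UMIs of Foxq1, a forkhead factor of the urothelial list, and 71 of Psca. A castrated AP RFP+ cell was placed among them by 1 Krt7 UMI. It held 32 UMIs of Upk3a, 2 of Upk1a, 2 of Upk1b and 0 of Upk2, Foxq1, Psca and Krt4. A castrated DLP RFP+ cell also had 1 Krt7 UMI, with 7 of Upk3a, 2 of Upk1a and 45 of Foxq1. The other 10 were all castrated AP cells without Krt7. They held a median of 21 Upk3a UMIs and up to 101, but at most 5 of Upk1a and 3 of Upk1b, and none of Upk2, Upk3b or Snx31. All 10 had Hoxb13, a homeobox factor of the prostate, Defb50, a defensin, and Pnliprp1, a lipase relative with a median of 34 UMIs; 9 had Pbsn, the androgen-driven secretory protein probasin. Pnliprp1 was found in 3 of the 13 cells with Krt7, Defb50 in 7, Pbsn in 6 and Hoxb13 in 6. These genes were not counted in the remaining castrated AP cells, so they need not be particular to the 10. Outside the Krt4/Psca gate 11 of 462 castrated AP cells and 0 of 579 intact AP cells of run 2 had 3 or more Upk3a UMIs. All 10 cells came from 1 library, and neither run 1 nor run 3 held castrated AP cells kept apart from other lobes. Among the 10, 1 cell with 13 Upk3a UMIs also had 6 UMIs of the blood cell gene Ptprc, and no doublet caller was run.

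**Figure D3:**
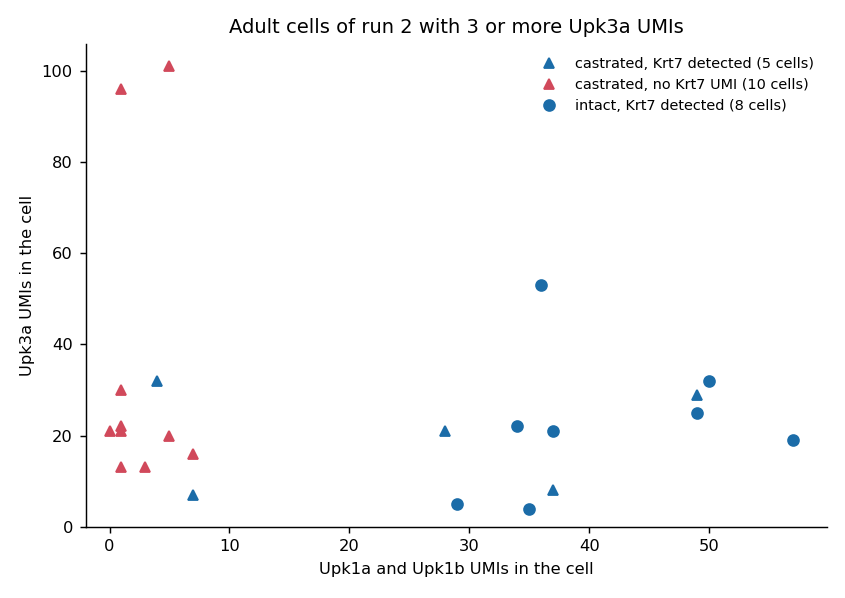
The 23 cells of run 2 with 3 or more UMIs of Upk3a, plotted by their summed UMIs of Upk1a and Upk1b (x axis) against Upk3a (y axis) and marked by Krt7 and by treatment. Of Upk1a alone, the 13 cells with Krt7 held up to 43 UMIs, whereas the 10 castrated AP cells without Krt7 held 5 or fewer.

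In the explants all 5 members were detected, and 4 were higher before culture than after 6 days. There was 1 library, with the explants of a day pooled, so that no test was possible and intervals cover counting error only. The study set clusters of this library apart from its developing prostatic cells. Among them were a bladder urothelium cluster, named by Upk3a, Foxq1, Plaur, Krt7 and Krt20, and mesonephric clusters, named by genes that include Pax2. All assigned cells were kept here, so that the levels are not those of prostatic cells alone. Over all cells of days 0, 1, 3 and 6 (701, 802, 1225 and 2470 cells) Upk1a lay at 71.1, 58.5, 20.7 and 4.40 CPM, 16.2 times (13.7 to 19.2) as high on day 0 as on day 6. Upk2 lay at 27.7, 14.03, 8.13 and 4.04 CPM (ratio 6.86) and Upk1b at 127, 101, 66.2 and 54.7 CPM (ratio 2.33). Upk3b lay at 3.55, 3.75, 0.776 and 0.110 CPM. Upk3a did not share this course: it lay at 68.4, 184, 144 and 98.1 CPM, with a ratio of day 0 over day 6 of 0.698. By the fold of 1 on the log2(CPM + 1) scale, 4 of 5 members were higher on day 0, against 7.36% of 13892 genes, with a median of 2.03 for the members and 0.18 for all genes. In that scale Upk3b, near 0 on day 6, is understated.

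On day 0 all 5 members were highest in the Krt4/Psca+ cells. Explant cells were Krt4/Psca+ at 5 or more UMIs of the pair (466 cells), Pax2+ at 1 or more UMIs of that transcription factor of the nephric and Wolffian ducts (315 cells), and other (4417 cells); 10 cells that passed both were counted as Krt4/Psca+. Cells just outside the first gate, with 3 or 4 UMIs, had Upk1a in 17.9% and 17.5% (78 and 40 cells), and those just inside, with 5 or 6, in 20.7% and 38.6% (29 and 44 cells). Upk1b was in 70.5% and 77.5% of those outside and in 72.4% and 88.6% of those inside. On day 0 Upk1a lay at 203 CPM in Krt4/Psca+ cells and 30.8 CPM in other cells, a ratio of 6.61 (5.78 to 7.56). Upk1b gave 259 and 99.4 CPM (2.60), Upk2 58.1 and 19.9 CPM (2.92), Upk3a 232 and 18.5 CPM (12.5, 10.7 to 14.7) and Upk3b 12.9 and 0.598 CPM (21.5, 9.22 to 61.4). All 5 members were thus higher by more than 1 on the log2(CPM + 1) scale, against 1.72% of 13892 genes, with a median of 2.68 for the members and -0.10 for all genes. Without the cells of 10 or more Upk3a UMIs the ratio of Upk3a was 3.52, and thinned it was 27.3. Of the 90 Krt4/Psca+ cells of day 0, 96.7% (90.6% to 99.3%, exact binomial) had Upk1b, 86.7% (77.9% to 92.9%) Upk1a, 62.2% Upk2 and 57.8% Upk3a, and 70% had 3 or more of the 5 members at once. Explant cells with 5 or more UMIs of the collagens Col1a1 and Col3a1, which mark mesenchyme, had Upk1a in 3.38%, Upk1b in 13.5% and Upk3a in 4.05% of 148 cells at a median of 7898.5 UMIs.

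With time in culture the Krt4/Psca+ cells held less Upk1a, Upk2 and Upk3b, and on day 6 less Upk3a than on any earlier day. Upk1a lay at 203, 199, 112 and 69.0 CPM on days 0, 1, 3 and 6 (90, 109, 163 and 104 cells), a ratio of day 0 over day 6 of 2.94 (2.42 to 3.60). The share of these cells with a UMI was 86.7%, 75.2%, 54.0% and 28.8%, and 57.8%, 52.3%, 37.0% and 21.9% when thinned to 8000 UMIs. Upk1b lay at 259, 191, 155 and 184 CPM (1.41, 1.24 to 1.60) and Upk2 at 58.1, 37.2, 31.7 and 21.1 CPM (2.76, 1.93 to 4.04). Upk3a lay at 232, 370, 376 and 42.1 CPM (5.51, 4.33 to 7.11), in 57.8%, 48.6%, 24.5% and 14.4% of cells. Upk3b lay at 12.9, 9.88 and 3.56 CPM and had no UMI on day 6. Without the cells of 10 or more Upk3a UMIs the ratio of Upk3a was 3.03, and thinned to 8000 UMIs that of Upk3a was 9.45 and that of Upk1a 5.27. Cells with 3 or more members went from 70% through 56.9% and 28.8% to 16.3%. That count was not thinned, and the median depth of these cells also fell, from 32217.5 through 30322 and 16651 to 14088.5 UMIs. Day and depth cannot be told apart in it. Among other cells Upk1a lay at 30.8, 11.2, 3.11 and 1.06 CPM and was found in 2.67% and 1.11% of cells on days 3 and 6, at or below the share in collagen-positive cells. Upk1b stayed broader, at 99.4, 73.8, 50.3 and 46.7 CPM in other cells, with 37.0% of them positive on day 6. The collagen-positive cells held 41.4 CPM of Upk1b (32.1 to 52.4). By CPM the other cells of days 3 and 6 were therefore not set apart from them.

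**Figure D4:**
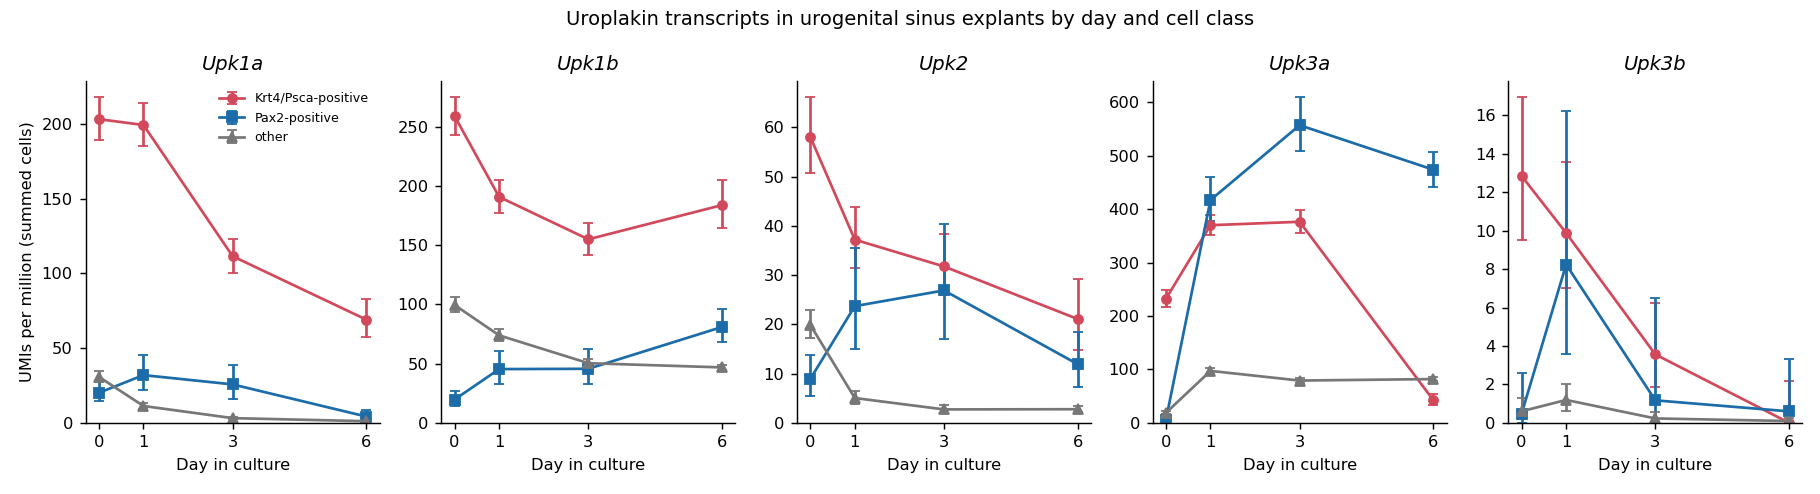
Level of each uroplakin (y axis, CPM, with 95% exact Poisson intervals) by day of culture (x axis) in Krt4/Psca+, Pax2+ and other explant cells. Upk1a went from 203 to 69.0 CPM in Krt4/Psca+ cells, while Upk3a went from 5.13 to 474 CPM in Pax2+ cells and from 376 to 42.1 CPM between days 3 and 6 in Krt4/Psca+ cells.

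Upk3a, a gene by which the study named its bladder urothelium cluster, was found more and more in cells without Krt4 and Psca. In Pax2+ cells (101, 45, 52 and 117 cells) it lay at 5.13, 417, 557 and 474 CPM, and in other cells at 18.5, 97.2, 79.1 and 81.9 CPM. On day 6 it was 5.79 times (5.34 to 6.27) as high in Pax2+ as in other cells, and Krt4/Psca+ cells held 0.515 times (0.401 to 0.650) the level of other cells. Krt4/Psca+ cells supplied 82.1% of Upk3a UMIs on day 0 and 49.2%, 40.4% and 2.02% on days 1, 3 and 6, whereas they supplied 69.2%, 83.3%, 83.0% and 73.8% of Upk1a UMIs. Upk1a in Pax2+ cells lay at 20.1, 31.9, 25.7 and 4.16 CPM, Upk1b at 19.6, 45.3, 45.6 and 80.9 CPM and Upk2 at 8.87, 23.7, 26.9 and 11.9 CPM. The share of Upk3a-positive cells that also had Upk1a was 69.7%, 46.3%, 33.9% and 8.89%. The Pax2 value rests on a minority of the class: 21.4% of the Pax2+ cells of day 6 had any Upk3a, and with the Pax2 gate at 2 UMIs the ratio to other cells was 1.20. Without the cells of 10 or more Upk3a UMIs it was 2.85.

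Most Upk3a lay in cells with Foxq1 or Krt20, the umbrella-cell keratin. Foxq1 made up most of this pair, with 1758, 2564, 2709 and 4246 UMIs on days 0, 1, 3 and 6. Krt20 had 51, 96, 19 and 85. Cells with 2 or more UMIs of that pair held 85.9%, 95.2%, 97.1% and 97.2% of Upk3a UMIs on days 0, 1, 3 and 6, and 80%, 90.0%, 90.4% and 91.2% of Upk2 UMIs. They made up 28.4%, 30.9%, 23.1% and 13.8% of all cells. Upk1a was near Upk3a on day 0, with 85.7%, 84.0%, 78.6% and 63.1% of its UMIs in these cells. For Upk1b the shares were 70.8%, 70.7%, 61.2% and 46.1%. Among such cells without the Krt4/Psca gate (129, 160, 167 and 286 cells) Upk3a lay at 29.5, 389, 646 and 764 CPM and Upk1a at 86.0, 29.6, 9.31 and 6.73 CPM, so that the members took opposite courses. With both gates (70, 88, 116 and 54 cells) Upk3a lay at 275, 422, 473 and 65.4 CPM. Krt4/Psca+ cells below the Krt20 and Foxq1 gate (20, 21, 47 and 50 cells) held 54.2, 118, 23.5 and 7.30 CPM. Cells outside both gates held 12.2, 7.47, 4.64 and 3.11 CPM. The Pax2+ cells divided in the same way: with the Krt20 and Foxq1 gate (7, 9, 18 and 32 cells) Upk3a lay at 39.9, 1731, 1485 and 1477 CPM, and without it (94, 36, 34 and 85 cells) at 0.529, 0, 59.3 and 1.75 CPM. The 165 explant cells with 10 or more Upk3a UMIs numbered 12, 42, 49 and 62 by day and held up to 491 UMIs. Of these, 99.4% had Krt7, 97.0% Upk1b and 97.0% Foxq1, against 40.6% with Upk1a, 27.3% with Psca, 26.7% with Krt4 and 26.7% with Krt20.

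**Figure D5:**
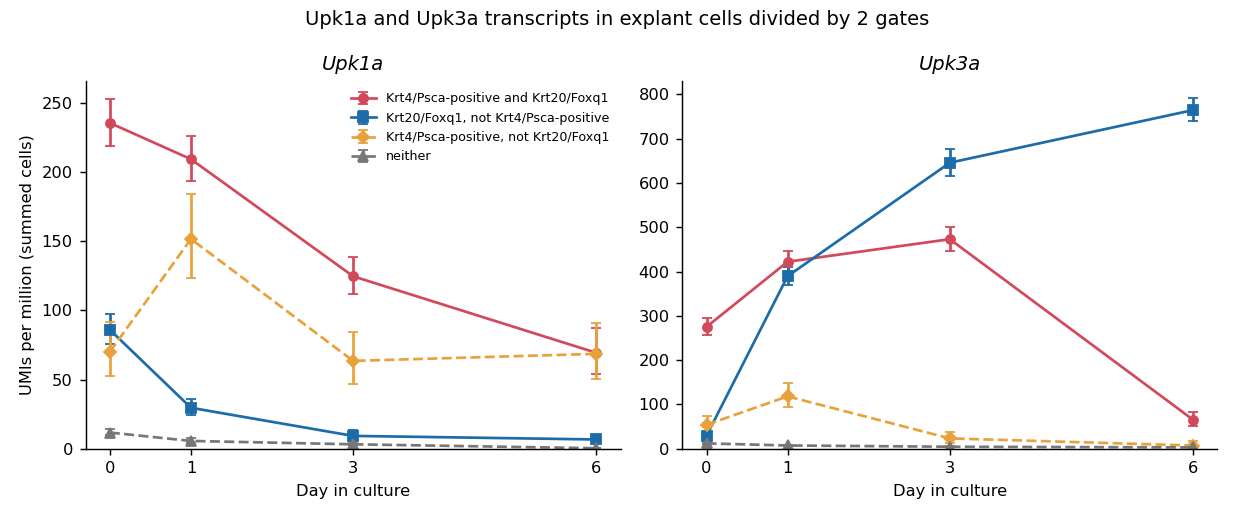
Upk1a and Upk3a (y axis, CPM) by day of culture in explant cells divided by the Krt20 and Foxq1 gate and the Krt4/Psca gate. In cells inside the Krt20 and Foxq1 gate but outside the Krt4/Psca gate, Upk3a went from 29.5 to 764 CPM. Upk1a went from 86.0 to 6.73 CPM there.

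In the explants the lists were read by a difference of more than 1 on the log2(CPM + 1) scale. Higher on day 0 than on day 6 were 2 of 7 traffic genes, 4 of 12 differentiation genes and 1 of 9 other tetraspanins. Of all genes 7.36% were. In Krt4/Psca+ cells Snx31 followed Upk1a and Upk3b in direction, at 42.7, 33.0, 16.9 and 1.17 CPM on days 0, 1, 3 and 6. Mal lay at 84.1, 125, 60.5 and 57.9 CPM there and at 29.4, 80.3, 138 and 117 CPM in Pax2+ cells, and Foxq1 at 47.1, 194, 326 and 416 CPM in Pax2+ cells. Krt7 went the other way in Krt4/Psca+ cells, at 490.2, 493, 707 and 812 CPM, as did Tspan8 at 149.6, 177, 291 and 283 CPM. Upk3bl, the neighbour of Upk3b, lay at 157, 99.7, 52.3 and 34.0 CPM over all cells of the 4 days.

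The genes whose levels ran most like each member were sought by Pearson's r of log2(CPM + 1), leaving out genes whose mean was under 10 CPM. Over the 12 explant sums of day and class, which share a library, Upk1a was most like Lypd2 (r = 0.98), Metrnl, Smagp, Cldn23 and Vsig10, and Upk2 was most like Bcl2l14 (0.94), with Smagp also among its 5. Upk1b was most like Tiam1 (0.96), Upk3a most like Hint2 (0.95) and Upk3b most like Snx31 (0.89). Among the members themselves r was 0.90 for Upk1a and Upk2 and 0.19 for Upk1a and Upk3a. Over the 23 adult population sums, where some populations share a run, Upk2 was most like Arhgap31 (0.82), and Krt4 and Psca were among its 5. Upk1b was most like Bspry (0.95) and Upk1a most like Slc12a2 (0.69); Upk1a and Upk1b gave r = 0.12. The 5 genes most like Upk3a there, headed by the immunoglobulin gene Ighm (0.86), rest on few UMIs of Upk3a.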

How the data were processed

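The deposited UMI tables and MULTI-seq barcode tables hold raw counts per cell, which the authors made with Cell Ranger 3.1.0 against mm10 (GRCm38) from 10x 3' libraries; they counted barcodes with deMULTIplex and assigned them with HTODemux in Seurat 3.1.5, with further thresholds for some barcodes. Runs 1 and 2 were sequenced on a NovaSeq, and run 3 and the explants on a HiSeq. Here cells were kept with 750 to 7500 genes and at most 10% mitochondrial UMIs (explants at least 1000 genes and 7.5%), and assigned to a population where 1 barcode passed the read thresholds the study lists; rerunning HTODemux in Seurat 5.3.0 was an alternative. The study's methods word the upper limit as 7500 UMIs; it was read as genes here, since the assigned cells had medians of 9750 to 13055 UMIs in the adult runs, and as UMIs in an alternative. The study's barcode sheet gives both VP barcodes of run 3 the short sequences of the AP ones but different full oligos; populations followed the barcode names. Cells with more than 1 barcode were left out and no doublet caller was run. The study used DoubletFinder in runs 1 and 2, where the barcode of intact DLP RFP+ cells had failed. The total was 15840672, 39115039 and 26703293 UMIs in the assigned cells of runs 1 to 3 and 90129168 in the explants. Every per-sample column was used.

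UMIs were summed per run and population or cell class with at least 10 cells, since cells are not replicates. Sums were tested in edgeR 4.0.16 (TMM, filterByExpr, quasi-likelihood, Benjamini-Hochberg adjustment over all genes) in R 4.3.3, with 3 runs as replicates; the labels do not say that runs held separate mice, so p-values measure the spread between runs. DESeq2 1.42.0, library totals, no filter, cells under 7500 UMIs, other gates, leaving out non-epithelial or Upk3a-rich cells and leaving out each run were alternatives, the library totals and Upk3a-rich ones chosen after seeing the data. The populations of a run were pooled into 1 library, which is the pairing used for the block; shared mice are not stated. Deviations from group means correlated at 0.096 to 0.62 within a run (median 0.326, 30 pairs) and at -0.432 to 0.112 between runs in the population fit, and at 0.128 to 0.54 within a run in the class fit. Without replicates, 95% exact Poisson or binomial intervals are given, which cover counting error only. Thinning drew 4000 UMIs per adult and 8000 per explant cell and left out shallower cells. Scripts were tested on simulated data. The members and lists were chosen with earlier results of these data known; all 5 members, at most 4 called genes per list and the 5 genes most like each member are named. Promoter sequences are RefSeq's.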

Additional observations from a re-analysis of the deposited data

How the results depend on the processing

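The number of the 3 tested members that was called moved under several alternatives (Upk3a-rich cells are those with 3 or more Upk3a UMIs in adults and 10 or more in explants). In RFP+ cells between AP and VP, where edgeR called 0, DESeq2 called 3, the run as a replicate block 3, library totals 2, non-epithelial cells left out 2, and no low-count filter, HTODemux and Upk3a-rich cells left out 1 each; leaving out 1 run gave 0 to 1. In RFP- cells between AP and VP, where edgeR called 0, DESeq2, library totals, no low-count filter and the run as a replicate block called 2 each, and non-epithelial cells or Upk3a-rich cells left out 1 each. In the class comparisons all 3 were called; with cells under 7500 UMIs 1 was called in each, the only member then tested, and leaving out 1 run gave 0 to 3 against Krt5/Krt14+ cells and 0 to 1 against other cells. Upk1a against other cells was called in 6 of 13 alternatives. The block changed no other call of a member. The cause of these differences was not tested.

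Over all genes, calls ranged between 0 and 1430 for RFP in the AP (469 in the analysis reported), 0 and 159 for RFP in the VP (20), 0 and 7885 for AP and VP in RFP+ cells (2599), 0 and 2942 in RFP- cells (369), 0 and 62 for AP and DLP (26), 32 and 2104 for Krt4/Psca+ and Krt5/Krt14+ cells (1281), and 0 and 1686 for Krt4/Psca+ and other cells (990).

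Log2 fold changes of uncalled members turned their sign as follows. Upk1a by RFP in the VP was -0.14 with library totals, -0.94 with cells under 7500 UMIs and -0.13 to 0.65 without 1 run, and Upk2 there was -0.41 to 0.17 without 1 run. Upk1a between AP and VP RFP+ cells was 0.079 with cells under 7500 UMIs. Upk2 between AP and VP RFP- cells was -0.10 with HTODemux and -0.11 without Upk3a-rich cells. Upk1b between AP and DLP was -0.46 with cells under 7500 UMIs and -0.040 to 0.55 without 1 run.

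Ratios of castrated over intact in AP RFP+ cells moved for Upk1a to 4.50 with cells under 7500 UMIs, 1.11 without non-epithelial cells and 1.79 without Upk3a-rich cells, for Upk1b to 2.10 without non-epithelial and 3.09 without Upk3a-rich cells, and for Upk3a to 1.64 with cells under 7500 UMIs. In VP RFP+ cells, cells under 7500 UMIs gave 1.10 for Upk1a and 2.80 for Upk1b. In explant Krt4/Psca+ cells the ratio of day 0 over day 6 moved for Upk1a to 4.05 (gate at 2 UMIs), 2.15 (Upk3a-rich cells left out) and 5.27 (thinned), for Upk1b to 1.62, 1.10 and 1.71, for Upk2 to 4.39 (gate at 2), and for Upk3a to 7.88 (gate at 10), 3.03 and 9.45. Krt4/Psca+ over other cells of day 0 moved for Upk1a to 5.71 (gate at 2), 4.66 (Upk3a-rich left out) and 10.5 (thinned), for Upk1b to 3.06 (gate at 10), 2.04 and 3.56, for Upk2 to 1.95 (Upk3a-rich left out) and for Upk3a to 3.52 and 27.3. Pax2+ over other cells of day 6 moved for Upk3a to 1.20 with the gate at 2 UMIs and 2.85 without Upk3a-rich cells. Castrated lobes and explants have no replicate, and Upk3b and adult Upk3a did not pass the count filter.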
